A study of Capra hircus with 2 samples.

Results

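Skin from the scapular region of 1 coarse-type and 1 fine-type Liaoning cashmere goat, both in anagen, was profiled by droplet-based single-cell RNA sequencing, with 1 library each (CT-LCG and FT-LCG). The keratinocytes described here were the cells of low depth in which TRPV3, EPPK1, CASZ1, EVPL and DENND2C, called the rule genes below, together gave at least 3 unique molecular identifiers (UMIs, each a captured RNA molecule) and at least 5 per 10000 of the cell's UMIs. They had under 5000 UMIs in all, under 20 per 10000 of the cortex keratin KRT35 and under 20 per 10000 of COL1A1, COL1A2 and COL3A1 together. These limits selected 668 of the 13051 kept cells, 265 of 3443 in CT-LCG and 403 of 9608 in FT-LCG. They were 12.4% of the CT-LCG cells under 5000 UMIs (exact Clopper-Pearson interval 10.99 to 13.8%) and 9.30% of those in FT-LCG (8.45 to 10.2%). The labels give no age, sex or treatment, no allele or transgene was involved, and a coarse and a fine animal cannot be told apart from 1 goat and another. Cells of a library are not replicates, so no test was run, and every interval below covers counting error only.

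Keratinocytes are born in the basal layer, where they make keratins 5 and 14 and hold to the basement membrane. On their way up they switch to keratins 1 and 10 in the spinous layer, fasten to each other by desmosomes, and finally build the cornified envelope and its lipids. TRPV3 is a calcium-permeable, warmth-sensitive channel of keratinocytes, known in skin for its part in hair growth and in barrier formation. EPPK1 (epiplakin) and EVPL (envoplakin) are plakins, large proteins that tie keratin filaments together or to the envelope and the junctions. CASZ1 is a zinc finger transcription factor and DENND2C a DENN-domain protein of the kind that acts on Rab GTPases, while CA12, a membrane carbonic anhydrase, marks these cells but was not used to choose them.

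Among cells under 5000 UMIs, the rule genes set the members far more than the other markers did. The limit of 5 per 10000 removed 0 further cells, since 3 UMIs of fewer than 5000 always exceed it, the KRT35 limit removed 2 cells in each library, and the collagen limit removed 0 CT-LCG cells and 2 FT-LCG cells. Just inside the limit, 56 CT-LCG members (21.1%) and 181 FT-LCG members (44.9%) had exactly 3 rule UMIs. Just outside it, 129 CT-LCG and 395 FT-LCG cells had 2. The median CT-LCG member had 7 rule UMIs, the median FT-LCG member 4, and the highest had 34 and 14. The members were therefore closer to the limit in FT-LCG than in CT-LCG. At the upper limit of depth, 18 CT-LCG and 38 FT-LCG members lay within 500 UMIs below it, and 19 and 31 cells within 500 UMIs above it met the same markers.

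Members were deeper than the cells they were compared with. In CT-LCG the median member had 2408 UMIs from 1312 genes, and in FT-LCG 2046 UMIs from 1064 genes. The 1880 other kept CT-LCG cells under 5000 UMIs had a median of 1168.5 UMIs and 615 genes, and the 3932 in FT-LCG had 1269 UMIs and 736 genes. The share of cells that met the rule went up with depth, from 0.271% under 1000 UMIs to 35.3% at 2000 to 3000 UMIs in CT-LCG, and from 4.33% to 15.7% in FT-LCG. A cell with few UMIs has few chances to give 3 from these genes, so low shares in the shallow cells set no limit on how many express them. Of the cells with 5000 UMIs or more, 322 in CT-LCG (24.8%) and 714 in FT-LCG (13.5%) met the same markers. Barcode sequences were shared between the libraries by 11 kept cells of each, and 1 member of each library had a sequence kept in the other.

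**Figure D1:**
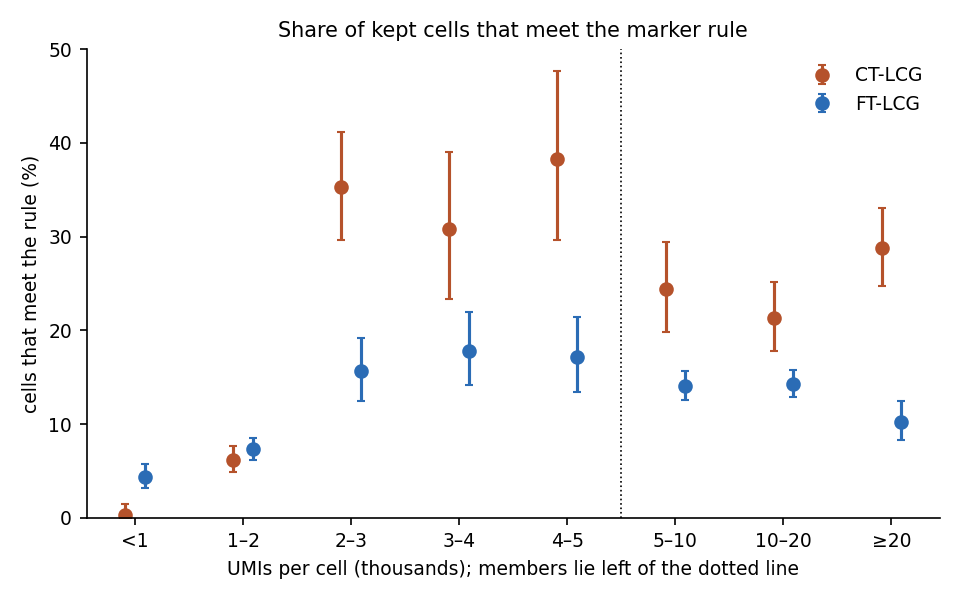
Share of kept cells (%, y axis) that met the marker rule, by UMIs per cell (x axis, in units of 1000), with exact 95% binomial intervals for each library. Shares are low under 2000 UMIs and reach 38.3% in CT-LCG at 4000 to 5000 UMIs, while FT-LCG stays at or under 17.8% in every bin.

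The values that chose the cells are given as a description only. TRPV3 was at 6.19 UMIs per 10000 in CT-LCG members against 0.215 in the other cells, and at 0.902 against 0.118 in FT-LCG. It was detected in 151 of 265 CT-LCG members (57.0%) but in only 62 of 403 in FT-LCG (15.4%). Most FT-LCG members thus gave no TRPV3 UMI at this depth. EPPK1 was detected in 62.3% of CT-LCG and 77.4% of FT-LCG members, and CASZ1 in 73.2% and 61.0%. EVPL was detected in 58.1% and 53.8%, and DENND2C in 67.2% and 36.2%. Depth and the number of rule UMIs differed between the libraries, so no direction between the goats is read from these shares. In CT-LCG, 103 members held 4 or 5 of the rule genes and 12 held 1 alone, while in FT-LCG 47 held 4 or 5 and 54 held 1.

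Each rule gene was then left out in turn and measured in the cells that the remaining rule genes chose with the same limit of 3 UMIs. Every one of the 5 was higher in those cells than in the cells not so chosen, in both libraries. TRPV3 was at 5.79 UMIs per 10000 (exact Poisson interval 5.22 to 6.39) against 0.409 in CT-LCG, a log2 ratio of 3.82, and at 0.605 (0.457 to 0.786) against 0.163 in FT-LCG, a log2 ratio of 1.89. EPPK1 gave log2 ratios of 3.22 in CT-LCG and 1.97 in FT-LCG, CASZ1 2.64 and 1.24, EVPL 2.52 and 1.67, and DENND2C 2.83 and 1.04. The cells chosen this way overlap the members, and deeper cells are more often chosen, so these ratios describe how the genes went together and are no independent proof of a cell type.

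CA12 was higher in the members of both libraries. It stood at 6.36 UMIs per 10000 (5.79 to 6.97) in CT-LCG members against 1.16 in the other cells, a log2 ratio of 2.46, and at 3.37 (3.02 to 3.76) against 1.30 in FT-LCG, a log2 ratio of 1.37. In cells thinned to 1000 UMIs each, which left out 1 CT-LCG and 45 FT-LCG members and 368 and 994 other cells, CA12 was detected in 39.8% of CT-LCG members against 9.66% of the other cells, and in 22.3% against 11.3% in FT-LCG. Without thinning the shares were 63.0% against 13.3% and 37.0% against 16.3%. Endothelial cells, which should lack TRPV3 and EPPK1, gave the background of detection, and CA12 was read in the same cells. Among 69 FT-LCG cells under 5000 UMIs with endothelial markers and few keratin UMIs, of median depth 2538, 7.25% had a CA12 UMI, 1.45% an EPPK1 UMI and 0 of 69 a TRPV3 UMI, which at the limit of 3 counts of the cells allows a share of up to 4.35%. CT-LCG had 11 such cells, of median depth 3094 UMIs, of which 0 had a CA12 or TRPV3 UMI, which allows up to 27.3%, and 1 (9.09%) had an EPPK1 UMI. The background was higher for desmosome genes reported below. Without thinning, DSP was detected in 26.1% of these FT-LCG and 81.8% of these CT-LCG cells, and DSG1 in 10.1% and 54.5%.

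**Figure D2:**
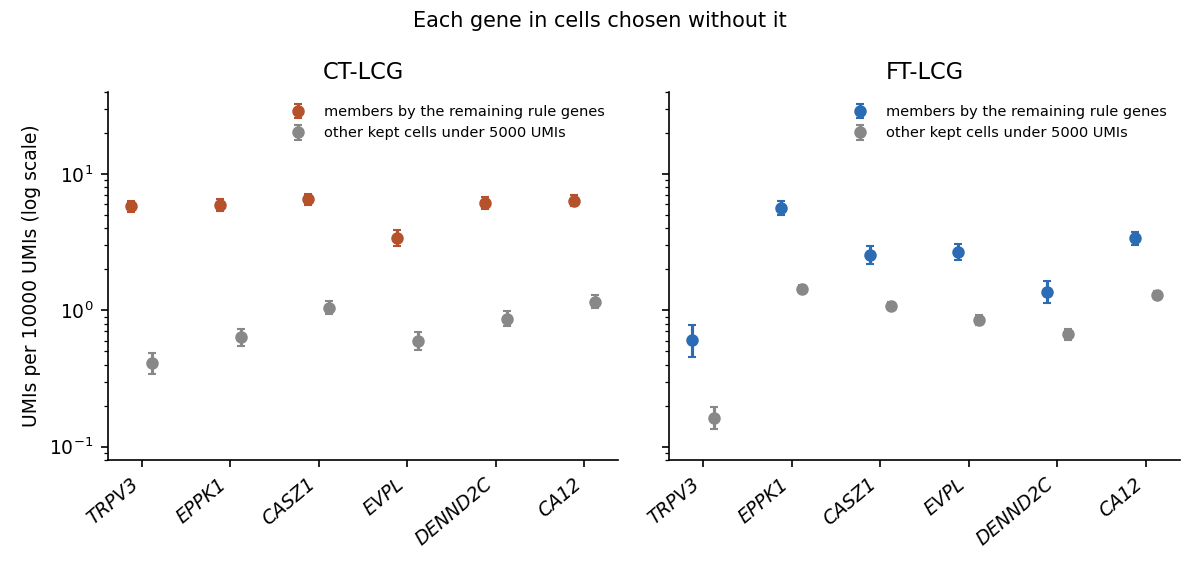
Level in UMIs per 10000 (log scale) of each rule gene in cells chosen by the remaining rule genes, and of CA12 in the members, against the other kept cells under 5000 UMIs, with exact 95% Poisson intervals. In both libraries the coloured point of every gene lies above its grey point (CA12 log2 ratio 2.46 in CT-LCG and 1.37 in FT-LCG).

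Keratins placed most members among differentiating keratinocytes in CT-LCG and spread them over the layers in FT-LCG. With KRT1 and KRT10 together at 100 per 10000 or more and at least 2 times KRT5 and KRT14, a cell was put in the spinous range, and with the reverse in the basal range. These are ranges of a score and not cell types. In CT-LCG the barcodes that were not kept held KRT1 and KRT10 at 316 per 10000 and KRT5 and KRT14 at 88.8. The barcodes not kept were sequenced cells that did not pass the authors' quality control, with medians of 424 genes in CT-LCG and 409 in FT-LCG. Free RNA and poor cells were not told apart in them. Their CT-LCG levels meet the spinous range by themselves, and the median CT-LCG member had KRT1 and KRT10 at 325. In FT-LCG these barcodes held 214 and 192, with neither leading. The part of free RNA in the shares below was not tested. In CT-LCG 80.0% of members lay in the spinous range (74.7 to 84.6%) and 8.30% in the basal range. In FT-LCG 39.5% lay in the spinous range (34.7 to 44.4%), 34.2% in the basal range and 15.1% held both sums at 100 or more with neither leading. The other cells were 69.9% spinous in CT-LCG, but 8.39% spinous and 49.7% mixed in FT-LCG, so the gap between members and other cells in spinous share was wider in FT-LCG. Members with 10 or more rule UMIs were mostly spinous in both libraries, 77 of 85 in CT-LCG (90.6%) and 19 of 23 in FT-LCG (82.6%). All members had a KRT1 or KRT10 UMI, but so did all but 13 of the other cells, so this detection sets nothing apart.

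Across the 7186 genes measured, each with 50 or more UMIs over these cells in CT-LCG and likewise in FT-LCG, members and other cells differed over the whole profile. The median log2 ratio of members over others was 0.35 for CT-LCG and 0.10 for FT-LCG, and the ratios below are read against those shifts. At least 2-fold higher in both libraries were 329 genes, 4.58% of those measured, and at least 2-fold lower in both were 233, or 3.24%. In CT-LCG alone 2017 genes were past 2-fold higher and in FT-LCG alone 400. The ratios of the libraries went together across genes (Pearson's r 0.702, Spearman's rho 0.687, over genes that are not independent), and the CT-LCG ratio was the larger in 282 of the 329. The rule had already used measures from these same cells, so these counts describe the members and test nothing.

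**Figure D3:**
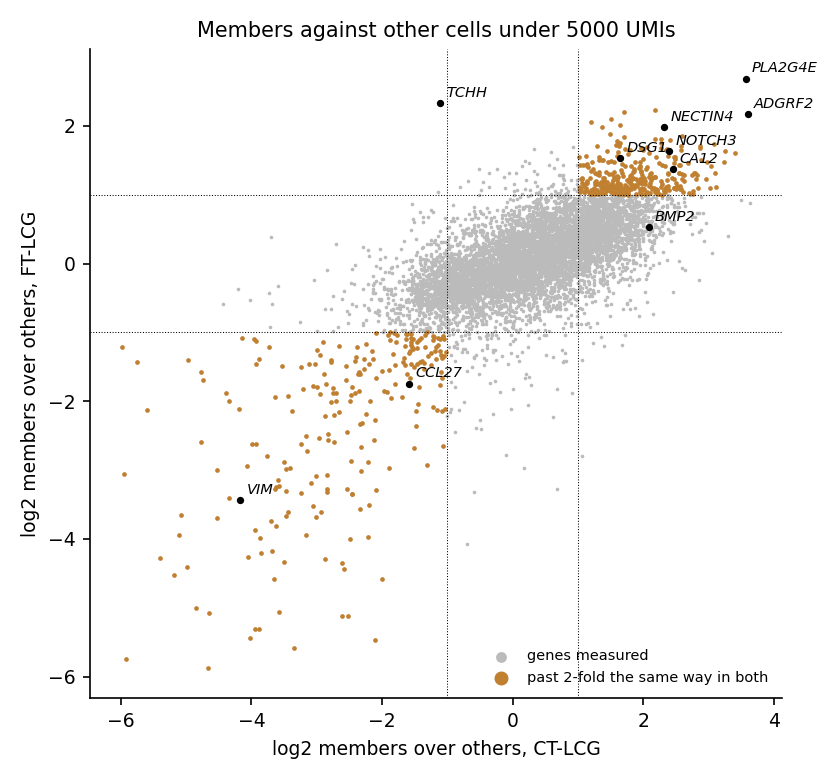
Log2 ratio of members over other cells under 5000 UMIs for the 7186 genes measured, CT-LCG on the x axis and FT-LCG on the y axis, with dotted lines at 2-fold. The 329 genes at upper right and 233 at lower left, in colour, passed 2-fold the same way in both libraries, and TCHH lies at upper left with opposite directions.

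The genes that led the members are given by the smaller of their ratios in the libraries. ADGRF2, an adhesion G protein-coupled receptor, was at 4.97 UMIs per 10000 in CT-LCG members against 0.409 in the other cells (log2 ratio 3.60), and at 1.83 against 0.406 in FT-LCG (2.18). PLA2G4E, a cytosolic phospholipase that makes N-acyl lipids, was at 1.50 against 0.126 in CT-LCG (3.57) and at 0.646 against 0.1004 in FT-LCG (2.68). These came first among the 20 highest, which were of mixed kinds. ABCA12, which loads lipids into lamellar granules, had log2 ratios of 2.88 in CT-LCG and 1.71 in FT-LCG. Its relative ABCA5 had 2.58 and 1.71, and DAGLB, a diacylglycerol lipase, 1.64 and 1.75. Among surface and signalling proteins, NECTIN4, an adhesion molecule of epithelial junctions, had 2.33 and 1.98, CHL1, of the L1 adhesion family, 2.18 and 1.80, and CELSR2, a planar polarity cadherin, 2.38 and 1.57. GAREM1, an adaptor in epidermal growth factor receptor signalling, had 2.35 and 1.66, and WWC1, of the Hippo pathway, 2.49 and 1.52. The scaffold AHNAK2 had 2.87 and 1.68, the homeobox gene DLX5 1.76 and 1.59, and PLXDC2, a membrane protein, 1.63 and 1.71. The unnamed protein-coding gene LOC102174022, at 31.2 per 10000 in CT-LCG and 14.0 in FT-LCG members, had 2.42 and 1.79.

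Desmosomes and plakins outside the rule were higher in members. Of 14 genes measured, 7 were at least 2-fold higher in both libraries, against 4.58% of all genes, and 0 were 2-fold lower, against 3.24%. By any amount 12 were higher and 1 lower in both. The medians were 1.17 in CT-LCG and 0.98 in FT-LCG. DSG1, the desmosomal cadherin of differentiating layers, was at 18.7 UMIs per 10000 in CT-LCG members against 5.97, and at 15.3 against 5.28 in FT-LCG. Its partner DSC1 was at 9.79 against 3.23 and at 7.57 against 2.21, or 3.03-fold and 3.43-fold. Desmoplakin (DSP), which links these cadherins to keratin, had log2 ratios of 1.55 in CT-LCG and 1.48 in FT-LCG. Plakoglobin (JUP) had 1.48 and 1.31, plakophilin 1 (PKP1) 1.20 and 1.34, DSC3 1.27 and 1.18, and periplakin (PPL), the usual partner of envoplakin, 2.47 and 1.55. Summed over the list, the level was 95.1 per 10000 against 44.8 in CT-LCG and 119 against 62.3 in FT-LCG. The medians depended on the comparison cells, with 0.33 and 0.63 against basal-range cells, where those of all genes were 0.43 and 0.14, and 1.09 and 0.57 against spinous-range cells, where those of all genes were 0.42 and 0.27.

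Adherens and tight junction genes were also higher. Of 19 measured, 8 were at least 2-fold higher in both libraries, against 4.58% of all genes, and 0 were 2-fold lower, against 3.24%, with medians of 1.67 in CT-LCG and 0.94 in FT-LCG. CDH1 (E-cadherin) was at 6.33 UMIs per 10000 against 1.67 in CT-LCG and at 3.34 against 1.48 in FT-LCG. CLDN1, the claudin of the epidermal tight junction, had log2 ratios of 1.33 and 1.15. NECTIN1 had log2 ratios of 1.95 and 1.40, and the genes past 2-fold also included AFDN, CGN and MPP7, which are scaffolds of these junctions, and NECTIN4. CTNNB1, the catenin that binds E-cadherin and also carries Wnt signals, was past 2-fold in CT-LCG (1.02) but not in FT-LCG (0.47). None of the 7 gap junction genes was past 2-fold in both libraries, and their medians were -0.04 and 0.68.

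Markers of the layers were split. Among 11 spinous genes, 6 were at least 2-fold higher in both libraries, against 4.58% of all genes, with medians of 1.01 in CT-LCG and 1.43 in FT-LCG. Against spinous-range cells these medians were 0.44 and 0.02, where those of all genes were 0.42 and 0.27. The CT-LCG median also fell under 2-fold with averaging over cells (0.82), with thinning (0.84) and without members holding UMIs of other cell types (0.94). KRT1 was at 226 UMIs per 10000 in CT-LCG members against 112 in the other cells, and at 170 against 58.1 in FT-LCG. KRT10 was at 170 against 131 (log2 ratio 0.38) and at 220 against 101 (1.13), so it passed 2-fold in FT-LCG only. The further spinous genes past 2-fold were DSG1, DSC1, NOTCH3 and the differentiation regulators ZNF750 and GRHL3. Of 11 basal and hemidesmosome genes 0 were past 2-fold in both, with medians of 0.57 and -0.18. KRT5 was at 28.4 against 30.7 in CT-LCG and at 95.4 against 97.5 in FT-LCG, which is nearly level, and KRT14 was lower, at 26.5 against 45.8 and at 103 against 133. Of 15 granular and cornified envelope genes PPL alone was past 2-fold in both, which is near the share of all genes. By any amount 10 of the 15 were higher in both and 2 lower, against 47.8% and 29.3% of all genes, with medians of 0.45 and 0.60.

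Barrier lipid genes included 4 of 18 that were at least 2-fold higher in both libraries, against 4.58% of all genes. These were CERS3, which makes ultra-long ceramides, with log2 ratios of 1.70 in CT-LCG and 1.84 in FT-LCG, PNPLA1, which makes acylceramide, with 1.50 and 2.10, SPTLC3, a subunit of serine palmitoyltransferase, with 2.25 and 1.01, and ABCA12. The medians of the list were 0.51 and 0.71. Against spinous-range cells they were 0.25 and 0.33, where those of all genes were 0.42 and 0.27. Calcium and ion transport included 5 of 21 by the same measure, with medians of 1.23 and 0.54. The calcium sensor STIM1 had 1.96 and 1.33, the calcium pump ATP2B4 1.51 and 1.49, and the calcium release channel ITPR3 1.65 and 1.11. The subunits of the epithelial sodium channel, SCNN1A and SCNN1B, had 1.70 and 2.20, and 1.05 and 1.23. Each of these 9 genes except ABCA12 and ITPR3 rested on fewer than 100 UMIs in the members of each library.

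Few signalling genes were past 2-fold in both libraries, and their counts are to be read against 4.58% of all genes higher and 3.24% lower. NOTCH1, NOTCH2 and NOTCH3 were all at least 2-fold higher in both libraries, with log2 ratios of 1.62, 2.29 and 2.40 in CT-LCG and 1.15, 1.00 and 1.63 in FT-LCG, and they were the only 3 of 17 Notch pathway genes to be so. In the epidermal growth factor receptor axis 2 of 17 were past 2-fold, the receptor ERBB3 (1.60 and 1.27) and the ligand HBEGF (1.43 and 1.13), while EGFR itself had 1.79 and 0.72. Of 24 genes of the BMP, Wnt and hedgehog pathways, the receptor BMPR1A was past 2-fold higher in both (1.39 and 1.12), a share near that of all genes. ID3, LEF1 and PTCH1, which report BMP, Wnt and hedgehog activity, were past 2-fold lower, ID3 with -1.11 and -1.26. LEF1 and PTCH1 had 6 UMIs or fewer in the members of either library. They reached the minimum of UMIs for a measured gene through the other cells, which largely sets their direction. No lower Wnt or hedgehog activity is read from them. BMP2, a ligand, was at 1.69 UMIs per 10000 in CT-LCG members against 0.399 (log2 ratio 2.09, interval 1.71 to 2.46), and at 0.338 against 0.234 in FT-LCG (0.53, interval -0.06 to 1.08).

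Of 29 epidermal transcription factors, 26 were higher in both libraries by any amount, as were 47.8% of all genes measured, and 5 passed 2-fold in both, against 4.58% of all genes. Their medians were 1.07 in CT-LCG and 0.52 in FT-LCG. Against spinous-range cells the medians were 0.86 and 0.19, where those of all genes were 0.42 and 0.27. GRHL1, a grainyhead factor that controls desmosomal cadherins, had log2 ratios of 1.99 in CT-LCG and 1.65 in FT-LCG. PRDM1 had 2.13 and 1.24, KLF3 1.36 and 1.16, ZNF750 1.07 and 1.43, and GRHL3 1.03 and 1.44. TP63, the factor of the basal layer, was not past 2-fold in either library (0.57 and 0.48). All 27 chromatin and splicing genes with long transcripts were higher in both libraries, against 47.8% of all genes, with medians of 1.60 and 0.60. KMT2C (1.82 and 1.16) and the ubiquitin ligase HUWE1 (2.18 and 1.05) were the 2 of 27 past 2-fold in both, against 4.58% of all genes.

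Cytosolic ribosomal protein genes were lower in members, by far more in CT-LCG than in FT-LCG. They gave 9.81% of all UMIs in CT-LCG members against 24.5% in the other cells, and 17.3% against 22.8% in FT-LCG. Of 77 genes measured, 76 were lower in both libraries by any amount, against 29.3% of all genes, and 0 passed 2-fold in both, against 3.24%, with medians of -1.32 and -0.39. Single members ranged from 2.09 to 34.4% in CT-LCG, with a median of 8.66%, and from 3.65 to 42.4% in FT-LCG, with a median of 15.1%. The other cells had medians of 25.1% and 20.2%, so the members and the other cells overlapped but their middles lay apart. Nuclear-encoded respiratory chain genes were lower too, with medians of -1.03 and -0.29 over 53 genes. A lower share of these abundant RNAs leaves more of each 10000 UMIs to all other genes, and its part in the higher levels above was not tested. The nuclear RNAs MALAT1 and NEAT1 are not in the matrix under these names, and genes of the mitochondrial genome were not analysed here.

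**Figure D4:**
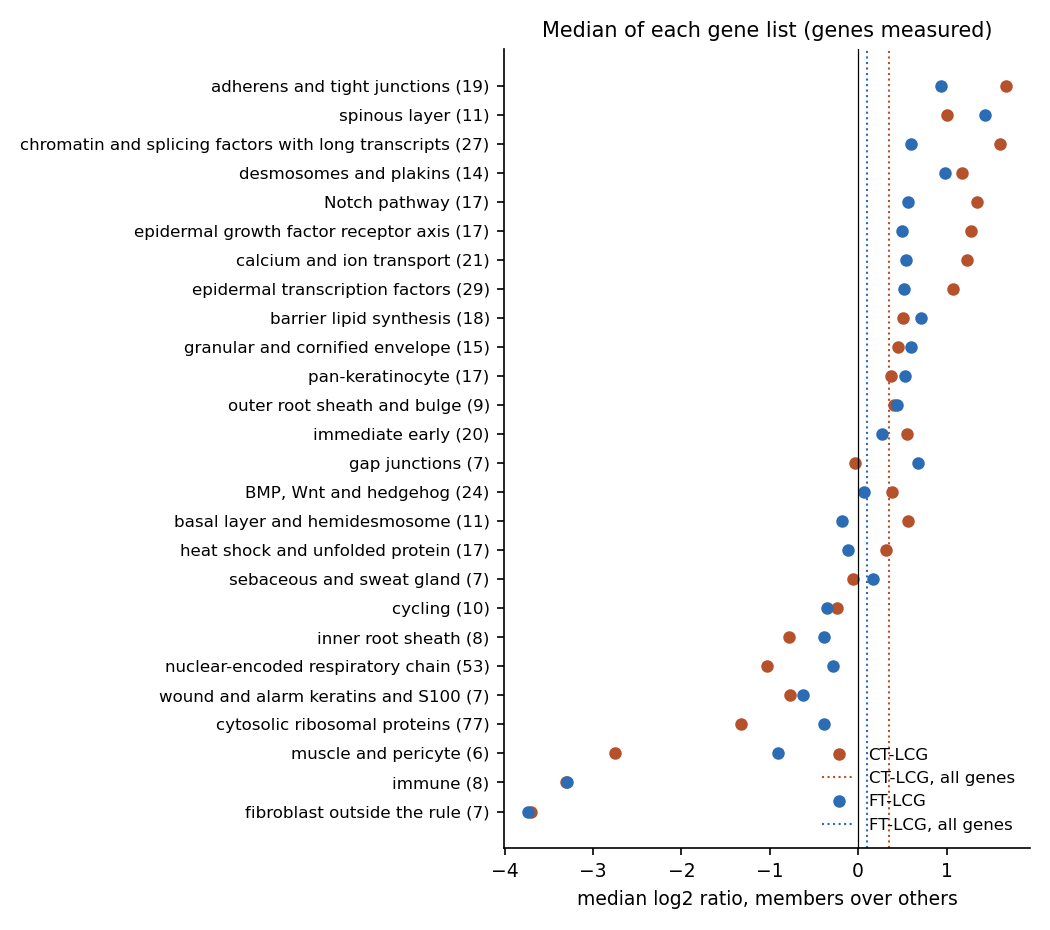
Median log2 ratio of members over other cells under 5000 UMIs (x axis) for each gene list with 5 or more genes measured (number in brackets), one point per library, with dotted lines at the medians of all genes (0.35 in CT-LCG, 0.10 in FT-LCG). Adherens and tight junctions (1.67) and chromatin genes (1.60) lie furthest right in CT-LCG and the spinous layer (1.43) in FT-LCG, gap junctions lie on opposite sides of the lines, and the fibroblast and immune lists lie furthest left.

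Stress genes were split. None of 20 immediate early genes and none of 17 heat shock genes was past 2-fold in both libraries, against 4.58% of all genes higher and 3.24% lower. By any amount 15 of the immediate early genes were higher in both and 0 lower, against 47.8% and 29.3% of all genes. Immediate early genes gave 2.65% of UMIs in CT-LCG members against 1.81% in the other cells, and 2.40% against 2.12% in FT-LCG, and JUN had log2 ratios of 1.10 and 0.49. The median member had 1.87% against 1.37% for the median other cell in CT-LCG, but 1.62% against 1.92% in FT-LCG. Of 7 genes of wound keratins and alarm proteins, CXCL8 (-2.83 and -2.47) and IL1A (-1.07 and -1.05) were past 2-fold lower in both, against 3.24% of all genes. Cycling genes numbered 10, with 0 past 2-fold and medians of -0.24 and -0.35.

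Among the genes lowest in members, VIM, the vimentin of mesenchymal cells, stood at 0.916 UMIs per 10000 against 16.5 in CT-LCG and at 1.17 against 12.6 in FT-LCG. CCL27, a chemokine that keratinocytes make to draw T cells, was at 0.847 against 2.54 and at 2.75 against 9.19. Its direction turned with the comparison cells in FT-LCG, where the log2 ratio was 0.84 against spinous-range cells and -2.75 against basal-range cells. KRTAP11-1, a keratin-associated protein of hair, was at 0.777 against 2.43 and at 0.799 against 1.84. The other 7 of the 10 lowest are protein-coding genes without a name, among them LOC102184223 (log2 ratios -2.55 and -1.49) and LOC102182395 (-1.51 and -2.68). Against basal-range cells several were no longer past 2-fold. There VIM had -0.38 in CT-LCG and -0.42 in FT-LCG, KRTAP11-1 -0.25 and 0.14, and LOC102184223 -0.29 and 0.18. Against spinous-range cells KRTAP11-1 had -1.63 and -0.26, while VIM had -2.15 and -1.33.

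Markers of dermal, vascular and immune cells were mostly lower in members than in the mixture of other cells. All 7 fibroblast genes measured were past 2-fold lower in both libraries, against 3.24% of all genes. The list summed to 1.12 UMIs per 10000 against 20.5 in CT-LCG and 1.39 against 16.1 in FT-LCG, most of it VIM. Members held 81 and 136 UMIs of it, 66 and 114 of them VIM. Its other genes thus reached the minimum of UMIs for a measured gene through the other cells, which largely sets the count of 7. Basal-range cells had sums of only 1.52 and 1.85, and spinous-range cells 4.92 and 3.11. The FT-LCG median was -0.42 against basal-range and -0.50 against spinous-range cells, not past 2-fold. PDGFRA was at 0 UMIs in the members of both libraries. All 3 endothelial genes measured were lower, but members held only 7 and 23 UMIs of the list. These genes too reached the minimum through the other cells, so the count of 3 is set by it. The list summed to 0.0972 against 1.53 in CT-LCG and 0.236 against 2.96 in FT-LCG, and CDH5, TIE1, EMCN and ERG were at 0 UMIs. Basal-range cells had sums of 0.651 and 0.192, and spinous-range cells 1.09 and 0.232, so FT-LCG members were not lower than these. All 8 immune genes measured were lower, but members held only 54 and 35 UMIs of the list, so this count is likewise set by the minimum. The sums were 0.750 against 9.33 and 0.359 against 4.66, led by SRGN (30 UMIs) in CT-LCG and CD74 (13) in FT-LCG. CD3E and CD3D were at 0 UMIs. Spinous-range cells had sums of 2.25 and 1.81. Basal-range cells had 0.163 in CT-LCG, under that of the members, and 0.778 in FT-LCG. The melanocyte list summed to 0.416 against 1.57 and 0.451 against 0.611, led by MITF, with TYR, TYRP1 and DCT at 0 UMIs. The muscle and pericyte list was not lower as a sum in FT-LCG, at 2.16 against 2.08, and was at 1.87 against 2.97 in CT-LCG, but its leading gene in members was NOTCH3, which keratinocytes also make, and ACTA2 had 3 and 12 UMIs. At least 2 UMIs of that list were found in 12.5% of CT-LCG members against 2.87% of the other cells, and in 7.94% against 3.46% in FT-LCG. Taking out the 74 CT-LCG and 98 FT-LCG members with at least 2 UMIs over these 5 lists together, NOTCH3 included (27.9% and 24.3%, beside 25.2% and 28.5% of the other cells), left 304 genes past 2-fold higher in both, of which 250 were among the 329.

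Markers of the hair follicle were mixed. Hair matrix and cortex genes summed to 1.11 UMIs per 10000 in CT-LCG members against 4.32, and to 1.59 against 3.42 in FT-LCG, led by MT4. Inner root sheath genes summed to 16.8 against 40.9 in CT-LCG and, the other way round, to 25.4 against 16.2 in FT-LCG, led in both by trichohyalin (TCHH). In FT-LCG 4 of the 403 members, with 20 or more TCHH UMIs each, held 91.6% of the members' TCHH UMIs. Without those 4 cells TCHH was at 1.46 per 10000 in FT-LCG members against 2.30 in the other cells without 20 or more. The 4 cells also held the remaining inner root sheath genes at 206 per 10000, against 6.59 in the rest of the members, and 18 rule UMIs between them, so the marker limits admitted a few cells of that profile. Outer root sheath and bulge genes summed to 6.41 against 5.62 in CT-LCG and to 24.2 against 16.6 in FT-LCG, with 6 of 9 higher in both by any amount, against 47.8% of all genes, and medians of 0.40 and 0.44, while sebaceous and sweat gland genes had medians of -0.06 and 0.16 over 7. Their part in the results above was not tested.

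The comparison cells set part of these values. The other cells under 5000 UMIs were a mixture, and their summed profile was close to that of the barcodes that were not kept (Spearman's rho over the 7186 genes 0.920 for CT-LCG and 0.952 for FT-LCG), and that of the members was less close (0.687 and 0.870). These are correlations across genes that share a library. Against spinous-range cells only, 449 genes were at least 2-fold higher in both libraries, but only 107 of the 329 were among them. ADGRF2 kept a log2 ratio of 3.18 in CT-LCG but had 0.72 in FT-LCG, and PLA2G4E had 3.18 and 0.84. DSG1 had 1.24 and 0.55, and CA12 stayed past 2-fold in both (2.34 and 1.12). Of the 20 highest genes, only NECTIN4, AHNAK2, DAGLB and GAREM1 stayed past 2-fold in both libraries. LOC102174022 had 1.93 and 0.08, DLX5 1.37 and 0.10, PLXDC2 1.45 and 0.28, and ABCA12 2.55 and 0.53. The spinous-range cells were chosen for KRT1 and KRT10 and the members were not, with 39.5% of them in that range in FT-LCG, so the ratios of KRT1 and KRT10 here are set by that choice.

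Desmosomal and ribosomal genes kept their direction when both sides were limited to deeper cells. Among the cells with at least 2000 UMIs there were 188 members and 353 other cells in CT-LCG, with medians of 2970.5 and 2956 UMIs, and 208 and 1031 in FT-LCG, with medians of 3403.5 and 3296. Desmosomes and plakins summed to 100.0 UMIs per 10000 in CT-LCG members against 31.6, and to 116 against 53.8 in FT-LCG. Ribosomal protein genes summed to 945 against 2403 and to 1837 against 2564. KRT5 and KRT14 together were not lower in CT-LCG members here, at 58.1 against 55.9, and were at 209 against 248 in FT-LCG. The medians of depth lay close but the cells were not matched one by one. In these cells 507 genes were at least 2-fold higher in both libraries, 259 of them among the 329. Some list medians turned, among them inner root sheath (0.10 and 0.25), CT-LCG gap junctions (0.54) and CT-LCG sebaceous and sweat gland genes (1.01).

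Average levels changed with the number of rule UMIs in a cell. From cells with 0 rule UMIs to members with 10 or more, ribosomal protein genes went from 2551 to 668 UMIs per 10000 in CT-LCG and from 2296 to 933 in FT-LCG. Desmosomes and plakins went from 41.5 to 113 and from 54.9 to 171 over the same cells, and CA12 from 0.868 to 8.83 and from 1.14 to 4.95. KRT1 and KRT10 together went from 231 to 429 and from 139 to 732. Cells with 1 or 2 rule UMIs lay between in each of these 4 quantities, except that FT-LCG cells with 1 had slightly more ribosomal UMIs (2312) than those with 0. The steps are made of the counts that the rule used, so they do not tell whether separate sets of cells lie behind them. They also go up in depth, from a median of 1138 to 2977 UMIs in CT-LCG and from 1214 to 3023 in FT-LCG. Cells of 5000 UMIs or more that met the same markers had ribosomal protein genes at 1991 UMIs per 10000 for CT-LCG and 2233 for FT-LCG, against 981 and 1729 in the members, and CA12 at 1.29 and 1.39. Against the other cells of that depth, CA12 had log2 ratios of only 0.30 in CT-LCG and 0.57 in FT-LCG. List medians there were 0.26 and 0.39 for desmosomes and plakins and -0.26 and -0.29 for ribosomal protein genes. They were 0.66 and 0.69 for adherens and tight junctions and 0.48 and 0.88 for the spinous layer. The medians of all genes there were 0.06 and 0.03. In the cells of 5000 UMIs or more that met the markers, rule genes stood at 7.51 and 7.23 per 10000, against 30.1 and 18.7 in members. The part of this gap in the differences was not tested.

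**Figure D5:**
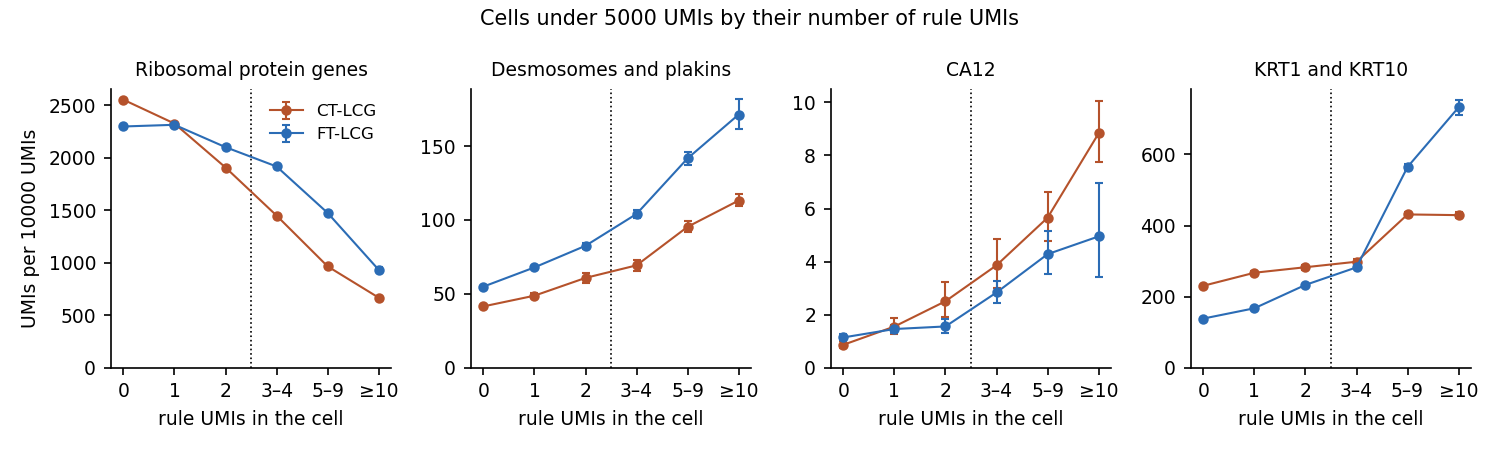
UMIs per 10000 of ribosomal protein genes, desmosomes and plakins, CA12, and KRT1 with KRT10 (y axes) in cells under 5000 UMIs grouped by their number of rule UMIs (x axis), with exact 95% Poisson intervals and members to the right of the dotted line. Ribosomal levels go down (CT-LCG 2551 to 668) and the other 3 quantities go up from 0 to 10 or more rule UMIs in both libraries.

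Members of the coarse and of the fine goat differed in many genes, with 1 library each. Of 2170 genes with at least 50 UMIs in the members of each library, 579 (26.7%) differed by 2-fold or more, 461 higher in CT-LCG, 118 higher in FT-LCG, and 90 of the 579 also did so the same way in the other cells. The rule genes were left out here, since they chose the cells. BMP2, which is outside the 2170 with 33 UMIs in FT-LCG members, was 5.01-fold higher in CT-LCG members. EHF, an epithelial ETS factor, was 7.05-fold higher in CT-LCG (14.0 against 1.98), REL, a subunit of NF-kappaB, 6.64-fold (14.1 against 2.12), and IGSF3, a membrane protein, 6.83-fold (3.50 against 0.512). Higher in FT-LCG members were CST6, a cysteine protease inhibitor of the upper epidermis, 8.93-fold (81.8 against 9.16), the chemokine CXCL14, 8.54-fold (6.64 against 0.777), and KRT6A, a keratin of the outer root sheath and of wounds, 7.97-fold (8.52 against 1.07). KRT5 and KRT14 were 3.36-fold and 3.87-fold higher in FT-LCG members, where more members lay in the basal range. In the other cells the log2 ratio of CT-LCG over FT-LCG was past 2-fold the same way for EHF (1.79), REL (1.03), CST6 (-1.56), CXCL14 (-1.21), KRT6A (-1.36), KRT5 (-1.67) and KRT14 (-1.53), but not for IGSF3 (0.20) or BMP2 (0.77). In the other spinous-range cells only EHF (1.67) and CST6 (-2.27) of these 9 were past 2-fold, and CXCL14 (0.56) and BMP2 (-0.15) went the other way. Goat, library and the mix of layers cannot be told apart here. The median number of rule UMIs per member was also unequal, 7 for CT-LCG against 4 for FT-LCG. Ribosomal protein genes took 9.81% of the counts of CT-LCG members against 17.3% for FT-LCG members, which leaves unequal room for other genes. Whether either gap bears on the 461 and 118 genes was not tested.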

How the data were processed

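The authors processed both libraries with Cell Ranger 3.0.2, per the file header, and deposited raw UMI counts of 27137 features in 17299 barcodes as 1 matrix, with a list naming the library of each of the 13051 kept cells. Seurat 3.1.1 stands in the submitters' processing notes. The sources used here do not give the build or annotation of the goat genome. Neither of the 2 labels tells the coarse from the fine animal, so the deposited list set the library. Identifiers of 27103 features matched the reference table of goat genes.

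Counts were summed over cells and given per 10000 UMIs. The log2 ratio of members over others used a floor of 3 counts for a sum of 0. Genes needed 50 UMIs in each library, and 2-fold was the limit for a count of genes. The 5 rule genes, KRT35 and the 3 collagens were left out of those counts. Intervals were exact Poisson or Clopper-Pearson, at 95%. Doublets were not called. Depth of kept cells ran from 729 to 172185 UMIs in CT-LCG and from 630 to 190503 in FT-LCG. Depth and 1 library per goat limit the precision.

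The members and the gene lists were chosen with earlier results of these data known. Named genes were the rule genes, CA12, BMP2 and CTNNB1, the 20 highest and 10 lowest of genes with 50 UMIs in the members of each library, the 5 that differed most each way between libraries, and list genes past 2-fold or highest. Further genes (EGFR, TP63 and defining markers of other cell types) were named after their values were seen. A few genes that this rule names are not reported here. Alternatives covered the limits of the rule, the comparison cells, averaging, depth and subtraction of the profile of barcodes not kept. Scripts ran in Python 3.11.15 with numpy 2.4.6 and scipy 1.17.1 and were tested on simulated data.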

Additional observations from a re-analysis of the deposited data

Results flagged for a closer look

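TCHH went opposite ways in the libraries, with a log2 ratio of members over other cells of -1.12 for CT-LCG but 2.33 for FT-LCG, and the difference was not tested. The summed level of the inner root sheath list, which TCHH leads, likewise had a log2 ratio of -1.29 in CT-LCG and 0.65 in FT-LCG, also not tested. In FT-LCG 4 members held 1534 of the 1675 TCHH UMIs.

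Barcodes that were not kept also held rule UMIs. Of 2659 such barcodes of CT-LCG, 5 had 3 or more (0.188%, exact interval 0.0611 to 0.438%, where a count of 0 would allow 0.113%), and of 1589 of FT-LCG, 15 did (0.944%, 0.529 to 1.55%, against 0.189%). These 5 and 15 barcodes had 25.8% and 18.6% ribosomal UMIs.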

How the results depend on the processing

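No paired analysis was possible because each fibre type has 1 library and no result comes from a test. The number of members moved by more than 1.5 times with the limits of the rule. CT-LCG had 175 members under 3000 UMIs, 587 with no upper limit and 151 after thinning to 1000 UMIs. FT-LCG had 743 with 2 rule UMIs, 124 with 5, 694 under 10000 UMIs, 1117 with no upper limit, 122 after thinning, and 201 without EPPK1 in the rule (leaving out single rule genes gave 219 to 242 in CT-LCG and 201 to 380 in FT-LCG).

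Genes at least 2-fold higher in both libraries numbered 516 against depth-weighted other cells, 545 against basal-range cells, 637 with 5 rule UMIs, 503 under 3000 and 209 under 10000 UMIs, 2625 with a minimum of 1 UMI per gene and 107 with 200. Genes lower in both numbered 125 against basal-range and 58 against spinous-range cells, 365 with 5 rule UMIs, 490, 422 and 58 with gene minima of 1, 20 and 200 UMIs. Members with 10 or more rule UMIs gave 1183 higher and 470 lower, and cells of at least 2000 UMIs 507 higher, both chosen after seeing the data. With 1 library alone the counts were 400 to 2017 higher and 341 to 930 lower. Subtracting 10% of the profile of the barcodes that were not kept, as a stand-in for free RNA, gave 421 and 289. Whether that profile is free RNA was not tested.

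CA12 and the held-out rule genes kept their direction under every alternative run, and 1 was no longer past 2-fold, DENND2C in FT-LCG with 2 rule UMIs (0.91). The immediate early share in FT-LCG came to -0.045 against spinous-range cells. Of 406 values of gene lists and of all genes under alternatives, 331 kept both direction and side of 2-fold. Medians turned for the FT-LCG basal layer (1.61), cycling (1.10) and endothelial (0.18) lists against spinous-range cells, for hair matrix (0.19 in CT-LCG, 0.29 in FT-LCG) and FT-LCG endothelial (0.83) against basal-range cells, and for CT-LCG sebaceous and sweat gland genes in cells of at least 2000 UMIs (1.01). A further 25 list medians changed sign with neither value past 2-fold, among them FT-LCG granular genes (-0.54) against spinous-range cells, and CT-LCG outer root sheath (-0.91), wound genes (0.36 and 0.55) and FT-LCG inner root sheath (0.80) against basal-range cells. The cause was not tested.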
